A study of Mus musculus with 2 samples.

Results

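The genes described here are the histone genes of the mouse Hist clusters: Hist1, Hist2, Hist3 and the lone gene Hist4h4. Every gene whose symbol starts with Hist1h, Hist2h, Hist3h or Hist4 was taken. A gene was kept as a member when it had at least 20 UMIs over the kept cells of both libraries, where a UMI (unique molecular identifier) marks 1 captured RNA molecule. Of 67 such symbols in the gene list, 62 passed: 6 genes of linker histone H1, 17 of H2A, 16 of H2B, 11 of H3 and 12 of H4. Just inside the minimum stood Hist1h2ah with 23 UMIs and Hist1h4f with 25. Just outside it stood Hist1h3h with 13, Hist1h2ba with 9, Hist2h2aa2 with 4, Hist1h4m with 1 and Hist1h2bq with 0.

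The study profiled feeder-free E14 mouse embryonic stem cells by droplet single-cell RNA sequencing with capture of RNA 3′ ends. The groups were parental cells of wild-type genotype (WT) and cells in which Smad1 and Smad5 had both been targeted with CRISPR-Cas9, labelled S1/5 dKO. Both were grown on gelatin in medium with 15% fetal bovine serum and 1000 U/ml LIF, the cytokine that keeps such cells undifferentiated. There was 1 library per group, and which knockout line was used is not stated, so genotype, line, culture and library preparation cannot be told apart in any difference given here. No test was made for that reason, and every interval is an exact 95% interval that covers counting error only. Kept cells had 1000 or more genes seen and no more than 5% of their UMIs from mitochondrial genes. WT gave 2236 of them, with 95965242 UMIs in all and a median of 38662 per cell. The S1/5 dKO library gave 2910, with 109020533 UMIs and a median of 34548.5. The libraries shared 0 cell barcodes.

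Most histone genes of these clusters are transcribed and their mRNA made while DNA is replicated, which supplies the core histones H2A, H2B, H3 and H4 and the linker H1 for new chromatin. Their mRNAs end in a conserved stem-loop in place of a poly(A) tail, and stem-loop binding protein (SLBP) holds that end through processing, translation and decay. Oligo-dT primers capture poly(A) tails and can also anneal to runs of A inside an RNA, so the UMIs counted here are those histone RNAs that oligo-dT caught, whichever way. Histone variant genes outside the clusters, such as H3f3a or H2afz, are expressed through the whole cell cycle with ordinary poly(A) tails.

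The markers fitted the labelled cell type. All 6 pluripotency markers listed were present, with a summed level of 3009.9 UMIs per 10⁶ UMIs (CPM) in WT and 3036 CPM in S1/5 dKO, led by Pou5f1 (1316 and 1292 CPM). Endoderm markers summed to 2.01 and 2.14 CPM, Gata6 the most abundant of them (0.709 and 1.10 CPM). Fibroblast markers summed to 1.19 and 1.31 CPM, led by Thy1, while Col3a1 and Lum had 0 UMIs in both libraries. Markers of the rare 2C-like state, which resembles the early embryo, summed to 1.75 CPM in WT and 4.76 CPM in S1/5 dKO, led by Zscan4d (1.06 and 1.89 CPM), and Tcstv1 had 0 and 3 UMIs. They were found in 13 WT cells and 24 S1/5 dKO cells.

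The RNA of the targeted genes pointed in opposite directions. Smad1, a transcription factor that carries BMP signals, had 13.4 CPM in WT and 9.17 CPM in S1/5 dKO. Its partner Smad5 had 6.05 CPM in WT and 9.09 CPM in S1/5 dKO, a log2 ratio (S1/5 dKO over WT) of 0.59 (0.44 to 0.74), which goes against a loss of its RNA. A tag near the 3′ end can lie outside the deleted or altered stretch, so these levels check neither knockout. The second library is therefore called the library labelled S1/5 dKO, or the labelled dKO library for short.

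Over all 62 members, captured histone RNA was almost level between the libraries. WT had 154297 histone UMIs, or 1608 CPM (1599.8 to 1616), and the labelled dKO library 179630, or 1648 CPM (1640.1 to 1655). The log2 ratio was 0.04 (0.03 to 0.05), a 1.02-fold difference. Leaving out Hist1h1b alone, the member with the most UMIs, turned it to -0.01, so even this small surplus rested on 1 gene. Counted per cell the order was the other way, with 69.0 histone UMIs in WT and 61.7 in the labelled dKO library, whose cells had fewer UMIs in total. Without the cells that held a UMI of a 2C-like marker the log2 ratio was 0.03.

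Linker H1 and H2A made up most of this RNA, and the other core histones little. A 3′ UMI counts a molecule whatever its length, so levels are compared between genes as molecules and not per length. H1 held 778 CPM in WT and 824 CPM in the labelled dKO library, 48.4% and 50.004% of all histone UMIs. H2A followed with 599 and 616 CPM, 37.3% and 37.4%. H4 had 99.1 and 92.3 CPM, H2B 76.3 and 66.1 CPM, and H3 55.3 and 49.2 CPM. Nucleosomes hold the core types in equal numbers, and the captured RNA did not: H2A stood far above H2B, H3 and H4 in both libraries.

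**Figure D1:**
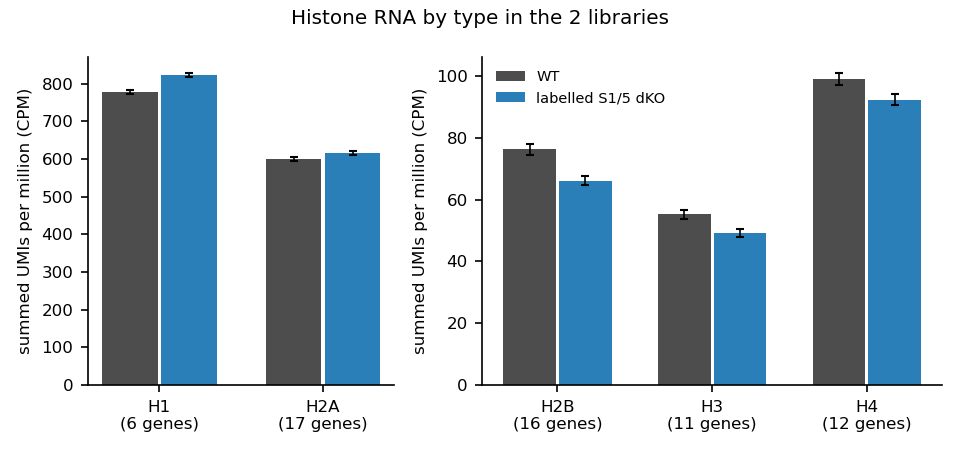
Summed level of the members of each histone type in UMIs per 10⁶ UMIs (CPM), on a separate axis for the abundant types H1 and H2A, with WT in grey, the library labelled S1/5 dKO in blue and bars for exact 95% Poisson intervals (counting error only, 1 library each). H1 and H2A were slightly higher in the labelled dKO library (778 and 824 CPM for H1), and H2B, H3 and H4 lower (55.3 and 49.2 CPM for H3).

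By type, H1 and H2A sat slightly above equality and H2B, H3 and H4 below it. The log2 ratio was 0.08 (0.07 to 0.10) for H1 and 0.04 (0.02 to 0.06) for H2A. It was -0.21 (-0.25 to -0.16) for H2B, -0.17 (-0.22 to -0.11) for H3 and -0.10 (-0.14 to -0.06) for H4. Single genes carried the first 3 of these values: without its member with the most UMIs, H1 went to -0.00, H2A to 0.00 and H2B to -0.03. H3 and H4 did not hang on their top genes, at -0.18 and -0.10 without them.

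A few genes supplied most of the UMIs. Hist1h1b and Hist1h2ap together held 59.2% of the histone UMIs in WT and 61.6% in the labelled dKO library, and the first 10 members 90.8% and 91.4%. The median member had 554.5 UMIs over both libraries, against 113280 for Hist1h1b. The Hist1 cluster on chromosome 13 gave 97.9% of the histone UMIs in WT, the 9 Hist2 members on chromosome 3 gave 1.56%, the 2 Hist3 members on chromosome 11 gave 0.391% and Hist4h4 on chromosome 6 gave 0.180%.

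Gene models were read for what could mark the captured 3′ ends (GENCODE M21 transcripts, GRCm38). The 16-base histone stem-loop was found in 44 of 62 members, and in 46 of all 67 Hist genes, in 8 forms of which the commonest was shared by 26 genes. Among 58725 protein-coding transcripts of other genes it was found in 92, or 0.157%. Of the members without it, 11 had a model that stops at the end of the coding sequence and 7 had some 3′ UTR. The leading H1 gene Hist1h1b and the leading H2B genes Hist1h2bc and Hist2h2bb had no stem-loop in their models. For each type, sites of the highest members by UMIs that have it are shown in capitals, to let the forms be compared:
Hist1h1e: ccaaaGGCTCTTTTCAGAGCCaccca
Hist1h1c: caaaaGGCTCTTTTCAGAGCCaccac
Hist1h2ap: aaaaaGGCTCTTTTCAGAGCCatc
Hist1h2ae: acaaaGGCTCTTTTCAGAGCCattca
Hist1h2be: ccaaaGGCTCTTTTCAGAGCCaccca
Hist1h3d: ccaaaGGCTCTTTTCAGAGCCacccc
Hist1h3c: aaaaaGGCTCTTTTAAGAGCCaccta
Hist1h4d: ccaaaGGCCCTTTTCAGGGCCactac
Hist1h4i: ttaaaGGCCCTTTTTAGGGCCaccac
The H1, H2A and H2B sites shown, and that of Hist1h3d, carry the same 16 letters, Hist1h3c differs in the loop, and the H4 sites have another stem.

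Many models run on past the stem-loop, and some hold the poly(A) signal AATAAA there. AATAAA followed the stem-loop in 14 members, which had a median of 701.5 UMIs, while the 30 members with a stem-loop and no AATAAA after it had a median of 557.5. The 11 members whose model stops without a 3′ UTR had a median of 302 UMIs and yet include Hist1h1b. Of the transcripts of other genes 60.4% held AATAAA somewhere along their whole length. The 21 members with a 3′ UTR of over 300 bases had a median of 1005 UMIs, against 391 for the other 41, and these classes held 11 and 9 of the 20 members with the most UMIs.

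Runs of A did go with UMIs, though through few genes. A run of at least 8 A was found in 7 members, whose median was 6673 UMIs, against 484 for the 55 others, and these 7 held 40.3% of all histone UMIs, most of them from Hist1h2ap. Such a run was found anywhere in 17.7% of the transcripts of other genes. The runs of the abundant members are shown in capitals, with Hist1h2ao beside Hist1h2ap because the pair share it:
Hist1h2ap: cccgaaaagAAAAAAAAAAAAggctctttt
Hist1h2ao: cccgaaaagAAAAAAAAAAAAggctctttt
Hist1h2ae: taatctcgtAAAAAAAAcaaaggctc
Hist1h2bc: atgtaaagcAAAAAAAAtgcgtcatg
Hist1h1d: atgtaatttAAAAAAAAtactgtaaa
Hist1h2be: gagacctggAAAAAAAAAAAtcagttcct
Hist1h2ac: ctaggagAAAAAAAAAAAAAAAgttctat
In Hist1h2ap and Hist1h2ao the run of 12 A ends where the stem-loop begins, and in Hist1h2ae a run of 8 lies a few bases before it. Whether a UMI of these genes came from a poly(A) tail or from the run cannot be told apart in counts per gene. Hist1h2ac has the longest run, 15 A, and 585 UMIs.

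**Figure D2:**
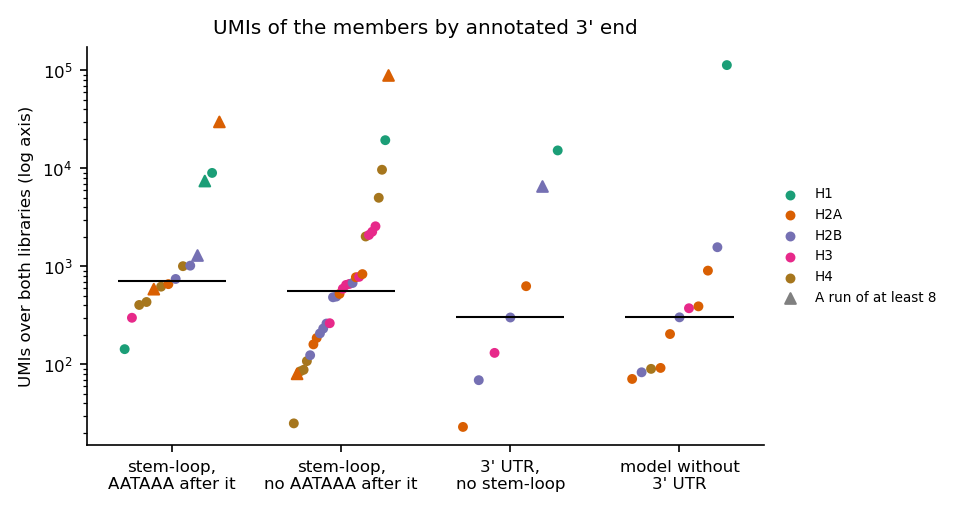
UMIs of each of the 62 members over both libraries (log axis) by the annotated 3′ end of its gene, with colour for the histone type, triangles for genes with a run of at least 8 A and black lines for the median of each class (701.5 UMIs for a stem-loop with AATAAA after it, 557.5 without). The classes overlap along the whole axis, and 5 of the 7 triangles belong to the 20 members with the most UMIs.

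Near-identical copies limit what single levels mean. In 31 of 62 members over 50% of the 50-base words in the last 400 bases of the model were also found in a gene at another locus, and these members held 31.4% of the UMIs. The coding sequences of H2A genes of equal length had a median identity of 96.7% over 106 pairs, those of H2B 97.4% over 136, those of H3 97.5% over 55 and those of H4 93.9% over 78. Every such word of Hist1h2ap was found in Hist1h2ao, so how reads fell to 88756 UMIs for the first and 80 for the second cannot be told from the counts. The annotation the authors counted on is another release than the models read here. Some genes overlap on the same strand: Hist1h2be with Hist1h1e, Hist2h2bb with Gm42743 and Hist3h2a with Trim17. Whether reads in a shared stretch were counted for either gene or left out cannot be told from the counts. The models also overlap Gm11398 (Hist1h2be and Hist1h1e), Gm20634 (Hist2h3c1 and Hist2h2aa1) and Gm24991 (Hist1h2ac), which are not in the counted gene list.

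Linker histones came first. Hist1h1b (ENSMUSG00000058773, chr13:21779883-21780625, minus strand, GRCm38), which encodes a linker histone that binds DNA between nucleosomes, had 50666 UMIs or 528 CPM in WT and 62614 UMIs or 574 CPM in the labelled dKO library. Its log2 ratio was 0.12 (0.10 to 0.14). Without cells of over 2 times the median UMIs the ratio was 0.078, and after every cell was thinned at random to 10000 UMIs it was 0.082. Hist1h1b was the member with the most UMIs in both libraries. It made up 67.9% and 69.7% of H1 UMIs. Its model stops at the stop codon, so neither a stem-loop nor a poly(A) signal could be read for it, and its most A-rich stretch of 20 bases lies in the coding sequence:
Hist1h1b: ccgccAAGAAGAAGACAACGAAAAAagctg
The other somatic linker genes were close to equality. Hist1h1e had 93.0 CPM in WT and 96.1 CPM in the labelled dKO library, log2 0.05 (0.01 to 0.09). This surplus shrank to 0.0046 on thinning and to 0.010 as the mean of per-cell CPM. Hist1h1a had 75.2 and 73.7 CPM, Hist1h1c 44.4 and 43.4 CPM and Hist1h1d 36.9 and 35.6 CPM, with intervals of the ratio that held 0 for all 3. Hist1h1t, the linker histone of the testis, had 58 UMIs in WT and 85 in the labelled dKO library, log2 0.37 (-0.13 to 0.87), and -0.07 after every cell was thinned at random to 10000 UMIs. Without Hist1h1b the H1 sum was level between the libraries.

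H2A was carried by a pair of genes. Hist1h2ap (ENSMUSG00000094777, chr13:21833026-21833507, minus strand) had 424 CPM in WT and 441 CPM in the labelled dKO library, log2 0.06 (0.04 to 0.08), and made up 70.8% and 71.6% of H2A. Hist1h2ae had 146 and 145 CPM, log2 -0.00 (-0.04 to 0.03), another 24.3% and 23.6%. The remaining 15 H2A members shared what was left, from 4.50 CPM for Hist1h2ak in WT down to 0.052 CPM for Hist1h2ah. Of all 17 members 9 were higher and 8 lower in the labelled dKO library. Intervals lay above 0 for 4 of them (19.1% of all genes with at least 20 UMIs) and below 0 for 2 (18.1%), which leaves 11 that held 0, so the H2A counts are no result about these genes.
Hist2h2ac had 3.90 CPM in WT and 4.22 CPM in the labelled dKO library, and Hist2h2ab 0.875 and 1.10 CPM, log2 0.33 (-0.08 to 0.75), which was among the 3 highest ratios of members with at least 100 UMIs. On thinning to 10000 UMIs the ratio of Hist2h2ab was 0.12. Hist1h2af went the other way with 3.47 and 2.71 CPM, log2 -0.36 (-0.59 to -0.13), and so did Hist1h2aa, a gene of testis histone H2A, with 60 and 32 UMIs, log2 -1.09 (-1.76 to -0.45). Hist1h2af, Hist1h2aa and the H2A genes of the next sentence were named after their values were seen. Hist3h2a had 2.92 and 3.48 CPM, log2 0.25 (0.03 to 0.48), and Hist1h2ac 2.56 and 3.11 CPM, log2 0.28 (0.04 to 0.52).

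The H2B difference was that of Hist1h2bc. This gene (ENSMUSG00000018102, chr13:23684199-23692908, plus strand), which encodes a core H2B, had 3602 UMIs or 37.5 CPM in WT and 3071 UMIs or 28.2 CPM in the labelled dKO library, log2 -0.41 (-0.48 to -0.34). It was the only named member of such depth to differ by so much, and it is also among the genes the study itself listed as differing between these libraries, so its ratio is no independent evidence. Its share of H2B UMIs was 49.2% in WT and 42.6% in the labelled dKO library. The model of Hist1h2bc is spliced, with a 3′ UTR of 742 bases that holds AATAAA and no stem-loop, whereas 10 of 18 Hist genes of H2B have the stem-loop. Thinned to 10000 UMIs, 27.95% of WT cells (26.1 to 29.9, exact binomial) had a Hist1h2bc UMI and 23.95% (22.4 to 25.6) of labelled dKO cells, against 62.0% and 52.2% before thinning. For Hist1h1e, with no such difference in level, the thinned shares were 51.3% and 50.02%.
The next H2B genes were close to equality. Hist2h2bb had 7.97 CPM in WT and 7.37 CPM in the labelled dKO library, Hist1h2be 6.29 and 6.30 CPM and Hist1h2bh 5.11 and 4.83 CPM, and all 3 intervals of the ratio held 0. In all, 8 of 16 H2B members were higher and 8 lower, with a median log2 ratio of -0.02, and on thinning 5 were higher and 11 lower, with a median of -0.13.

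H3 was the type in which the members shared a direction. All 11 H3 members were lower in the labelled dKO library, 6 of them with an interval below 0, and the median log2 ratio was -0.14. Of all genes with at least 20 UMIs 52.2% were lower and 18.1% had an interval below 0. The members come from the same pair of libraries and several share sequence with other H3 genes, so they are not independent. An interval also depends on the UMIs of a gene, so these counts are a description only. On thinning of cells to 10000 UMIs 8 of 11 were lower. Under the other cell filters and scalings tried all 11 stayed lower. Most of these keep most of the cells or shift all genes alike, so the count had little room to change. Hist1h3d, the H3 gene with the most UMIs, had 13.2 CPM in WT and 11.9 CPM in the labelled dKO library, log2 -0.14 (-0.25 to -0.03). Hist1h3c had 11.4 and 10.7 CPM, log2 -0.09 (-0.21 to 0.03), and Hist1h3e 10.8 and 9.67 CPM, log2 -0.16 (-0.29 to -0.04), which shrank to -0.031 on thinning. The largest differences were those of Hist2h3c2 and Hist2h3c1 in the Hist2 cluster. They were not shared by Hist2h3b of that cluster, with 62 UMIs in WT and 69 in the labelled dKO library, log2 -0.03 (-0.55 to 0.49). Hist2h3c2 (ENSMUSG00000081058, chr3:96238108-96239127, minus strand) had 162 UMIs in WT and 101 in the labelled dKO library, log2 -0.87 (-1.24 to -0.50), and Hist2h3c1 169 and 130 UMIs, log2 -0.56 (-0.90 to -0.22). These were the lowest ratios of members with at least 100 UMIs, and Hist1h2bc was the next. In the last 400 bases of their models no 50-base word was found at another locus, and the coding sequences lie outside that stretch.

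H4 genes did not share a direction. Of 12 members 8 were lower in the labelled dKO library, where 52.2% of all genes were, and 4 higher, with a median log2 ratio of -0.08. Hist1h4d had 49.0 CPM in WT and 45.7 CPM in the labelled dKO library, log2 -0.10 (-0.16 to -0.04), and made up 49.4% and 49.5% of H4 UMIs. As the mean of per-cell CPM its log2 ratio was -0.158. Hist1h4i had 26.2 and 22.9 CPM, log2 -0.20 (-0.28 to -0.12) and -0.088 as the mean of per-cell CPM, and Hist1h4h 10.1 and 9.63 CPM, log2 -0.07 (-0.20 to 0.06). Outside the Hist1 cluster, Hist2h4 had 4.48 and 5.27 CPM, log2 0.24 (0.05 to 0.42), a direction lost on thinning at -0.01. Hist1h4n had 43 and 65 UMIs, log2 0.41 (-0.17 to 1.00), the highest ratio of members with at least 100 UMIs, and 1.02 on thinning. The genes that carried the type were thus slightly lower, and those with few UMIs pointed both ways.

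**Figure D3:**
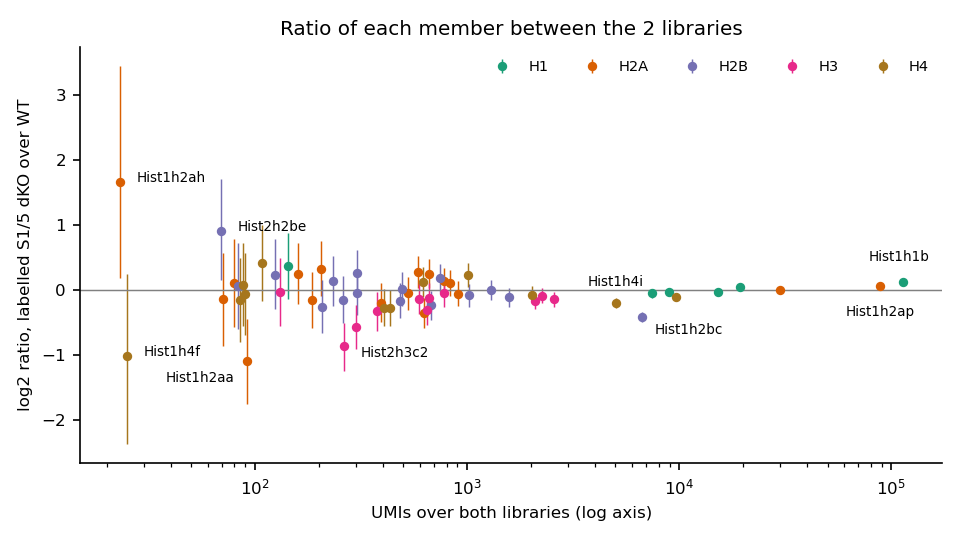
log2 ratio of each of the 62 members, labelled S1/5 dKO over WT, against its UMIs over both libraries (log axis), coloured by histone type, with exact 95% conditional binomial intervals as bars and a grey line at equality. Ratios spread at few UMIs and close in on 0 to the right, and of the 10 members with the most UMIs Hist1h2bc at -0.41 and Hist1h4i at -0.20 lie farthest below the line.

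The members that differed by a large fold were few, and are set here against all genes. With at least 20 UMIs, 4.37% of 15166 genes were at least 1.5-fold higher in the labelled dKO library and 2 of 62 members were, Hist2h2be and Hist1h2ah. At least 1.5-fold lower were 4.56% of genes and 3 of 62 members, Hist2h3c2, Hist1h4f and Hist1h2aa. Of these 5 only Hist2h3c2 had at least 100 UMIs. Among 9691 genes with at least 500 UMIs, 3.1% were higher by at least 25% and 0 of 32 members were, and 3.73% were lower by at least 20% and 2 of 32 members were, Hist1h2af and Hist1h2bc. These member counts are near the shares of all genes and are no result about histone genes. In all, 24 members were higher and 38 lower, where 47.8% and 52.2% of all genes were. Intervals lay above 0 for 8 members, against 19.1% of all genes, and below 0 for 12, against 18.1%, and 42 held 0. An interval also depends on the UMIs of the gene, so these shares are a description only. Their median log2 ratio was -0.05, against -0.01 over all genes with at least 20 UMIs.

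Histone levels differed more between called phases than between the libraries. Phases were called from S and G2/M gene scores on cells thinned to 10000 UMIs, with 43 WT and 67 labelled dKO cells too shallow for it, and no Hist gene was in the scoring lists. WT had 31.4% of 2193 cells called G1, 24.3% S and 44.3% G2/M. The labelled dKO library had 25.3%, 25.5% and 49.1% of 2843. Phase calls are read here only to order the cells, since the scores also take up free RNA and 41.9% and 40.3% of the cells lay within 0.05 of a boundary between phases. In WT, histone RNA was 2060.4 CPM in G1, 2373 CPM in S and 1024 CPM in G2/M. In the labelled dKO library it was 2019.8, 2516 and 1118 CPM. Histone RNA was thus highest in S and lowest in G2/M in both libraries.

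The difference between G1 and G2/M was the larger step. The log2 ratio of G2/M over G1 was -1.01 (-1.03 to -0.99) in WT and -0.85 (-0.87 to -0.84) in the labelled dKO library. S over G1 was 0.20 (0.19 to 0.22) and 0.32 (0.30 to 0.33), and it depended on the phase calls: 0.15 and 0.14 from cells thinned to 5000 UMIs, and 0.40 and 0.30 from unthinned cells. Its sign held, while its size and the order of the libraries did not. Per cell, the log2 ratio of G2/M over G1 was -0.70 and -0.60, from 82.1 histone UMIs in a WT G1 cell to 50.6 in G2/M and from 71.1 to 46.9 in the labelled dKO library.

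H1 and H2A varied most through the cycle, and H1 had the largest surplus in S over G1. H1 had 964 CPM in G1, 1217 in S and 484 in G2/M in WT, and 951, 1312 and 561 CPM in the labelled dKO library. Its S over G1 log2 ratio was 0.34 and 0.46. H2A had 821, 869.9 and 358 CPM in WT and 828, 944 and 386 CPM in the labelled dKO library. Its S over G1 log2 ratio, 0.08 in WT and 0.19 in the labelled dKO library, shrank to 0.019 and 0.0024 with phases from cells thinned to 5000 UMIs. Its G2/M over G1 ratio was the lowest of the types, with log2 values of -1.20 (-1.22 to -1.17) and -1.10 (-1.13 to -1.07).
H2B, H3 and H4 varied less. The log2 ratio of G2/M over G1 was -0.56 in WT and -0.43 in the labelled dKO library for H2B, -0.54 and -0.42 for H3, and -0.66 and -0.57 for H4. For S over G1 it was 0.10 and 0.12 for H2B, -0.02 and 0.16 for H3, and 0.07 and 0.09 for H4. With another random seed for the thinning, S over G1 in the labelled dKO library turned to -0.05 for H2B and -0.02 for H4, and H2B was at -0.04 from cells thinned to 5000 UMIs. In WT, H4 turned to -0.13 on that thinning, and H3 to 0.15 with phases from unthinned cells. A difference between S and G1 was therefore not settled for H2A, H2B, H3 and H4, while the lower level in G2/M had the same sign for all types under every alternative.

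Gene by gene the same lower level in G2/M was seen in most members. At least 1.5-fold lower in G2/M than in G1 in WT were 0.402% of the 9691 genes with at least 500 UMIs, 39 genes in all, and 19 of 32 members were among them. In the labelled dKO library the rule took 0.299%, or 29 genes, and 12 of 32 members. These shares of members, 59.4% and 37.5%, stand far above those of all genes. Higher in S than in G1 by at least 25% were 9.54% of genes in WT and 9 of 32 members, and 15.9% of genes in the labelled dKO library and 10 of 32 members, a smaller surplus. Intervals of G2/M over G1 lay below 0 in both libraries for 22 of 32 members and 8.13% of the 9691 genes. An interval above 0 in at least 1 library was found for 0 members and 41.8% of the genes.

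The single genes differed in shape. Hist1h2ap had 597 CPM in G1, 617 in S and 244 in G2/M in WT, and 617, 676 and 266 CPM in the labelled dKO library. With log2 ratios of G2/M over G1 of -1.29 and -1.21 it had the lowest ratio of members with at least 500 UMIs in both. Hist1h1b had 668, 843 and 314 CPM in WT, and 682, 927 and 377 CPM in the labelled dKO library. Hist1h1a had the largest surplus in S of the 10 members with the most UMIs, 88.3 CPM in G1 and 127 CPM in S in WT, log2 0.52 (0.44 to 0.60), and 78.3 and 128 CPM in the labelled dKO library, log2 0.70 (0.62 to 0.79). Hist1h4d showed no surplus in S, with S over G1 at -0.07 (-0.17 to 0.04) and -0.03 (-0.14 to 0.07), while G2/M over G1 was -0.80 and -0.68. Hist1h2bc had 46.3, 48.7 and 27.9 CPM in WT and 34.9, 35.9 and 22.0 CPM in the labelled dKO library, lower there in each phase.

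Some members had an interval of G2/M over G1 that held 0 in at least 1 library. Hist2h4 had 4.55 CPM in G1 and 4.54 in G2/M in WT, log2 -0.00 (-0.33 to 0.32), and 5.84 and 4.59 CPM in the labelled dKO library, log2 -0.35 (-0.64 to -0.05). Hist1h3d had G2/M over G1 log2 ratios of -0.35 (-0.54 to -0.17) and -0.05 (-0.25 to 0.15), and Hist1h2be -0.16 (-0.43 to 0.12) and -0.12 (-0.39 to 0.16). Hist3h2a, at 0.32 (-0.10 to 0.75) in WT and -0.05 (-0.41 to 0.32) in the labelled dKO library, and Hist3h2ba, at 0.09 (-0.29 to 0.47) and -0.14 (-0.48 to 0.21), were named after their values were seen. Both genes of the Hist3 cluster therefore showed no lower level in G2/M that the depth could resolve.

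**Figure D4:**
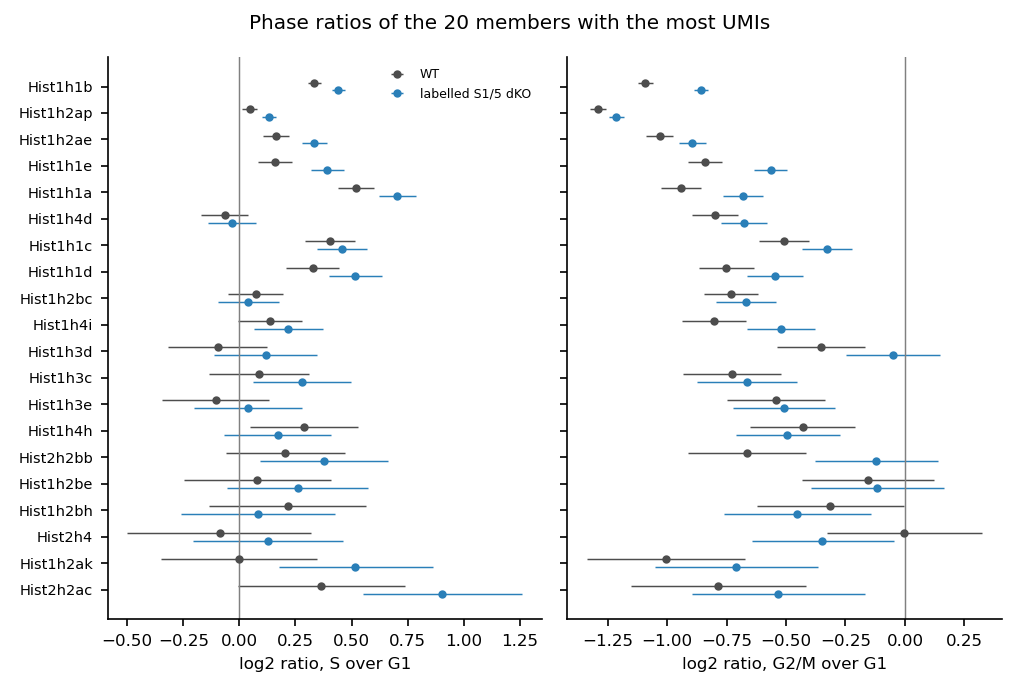
log2 ratio of the level in S over G1 (left) and in G2/M over G1 (right) for the 20 members with the most UMIs, ordered by UMIs, with WT in grey, the library labelled S1/5 dKO in blue and bars for exact 95% conditional binomial intervals. Points on the right lie mostly left of 0, from -1.29 for Hist1h2ap in WT to near 0 for Hist2h4 in WT and Hist1h3d in the labelled dKO library, while those on the left scatter around and above it.

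Ordering cells by the angle of their S and G2/M scores, in 12 bins of equal size over both libraries together, gave a finer view. Within a library the bins were unequal, with 142 (bin 5) to 221 WT cells and 199 to 277 (bin 5) labelled dKO cells. Bins 12 and 1 held only cells called G1, bins 3 and 4 only S and bins 6 to 10 only G2/M. The summed members peaked in bin 3 in both libraries (WT 2562 CPM, labelled dKO 2726 CPM), and were lowest in bin 8, at 902 and 943 CPM. That is a 2.84-fold and a 2.89-fold range. Genes in neither scoring list placed the bins: Ccne1, the cyclin of entry into S, peaked in bin 4 in both libraries, the replication gene Mcm3 in bin 5 in WT and 4 in the labelled dKO library, Ccna2 in bins 7 and 6, and Ccnb1 and Plk1, of mitosis, in bin 7 in both. In the labelled dKO library bin 4 stood at 2713 CPM, almost level with bin 3, and H1 peaked there. In bin 5, where Ccne1 was still near its peak, the members stood at 1539 and 1693 CPM, below their level in bins 12 and 1. Histone RNA was thus high from the bins of cells called G1 up to the bin of the Ccne1 peak. It was lower in the next bin and lowest around the peak of the mitotic genes. None of the check genes marks G1 alone, so whether cells of bins 12 and 1 were all in G1 was not tested.

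H2A and H1 had wider ranges than the other types in both libraries. H2A ranged 3.15-fold in WT and 3.43-fold in the labelled dKO library, H1 2.99-fold and 3.08-fold, H4 2.03-fold and 2.02-fold, H2B 1.99-fold and 1.67-fold and H3 1.73-fold and 1.80-fold. Hist1h1a and Hist1h1d peaked in bin 4 in both libraries, Hist1h2ap in bin 3 and Hist1h4d in bin 2. Of the 32 members with at least 500 UMIs, 28 in WT and 29 in the labelled dKO library peaked in bins 1 to 4, where 28.4% and 29.98% of the 9691 genes did. The low lay in bins 5 to 8 for 19 and 27 members, against 25.2% and 24.2% of the genes. The widest range was that of Hist2h2aa1 in WT, 4.07-fold, and of Hist1h2ak in the labelled dKO library, 4.99-fold, both from few UMIs per bin. The narrowest were Hist2h4 in WT at 1.58-fold and Hist1h3d in the labelled dKO library at 1.37-fold.

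**Figure D5:**
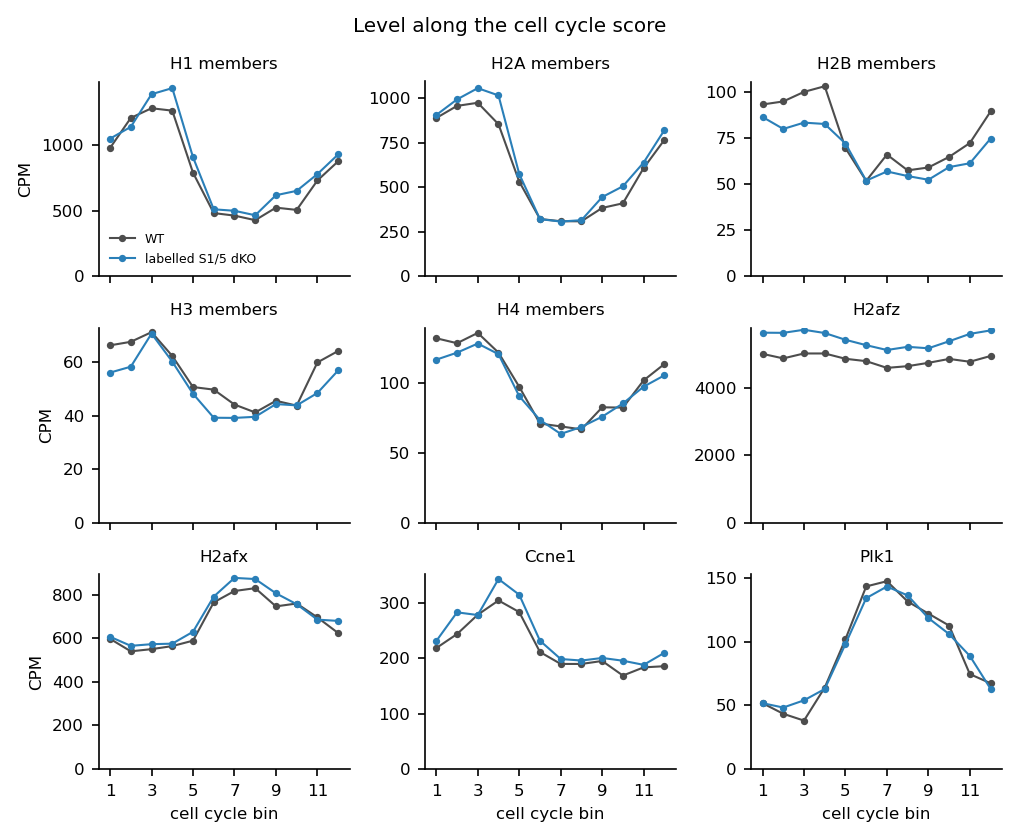
Level in UMIs per 10⁶ UMIs (CPM) over 12 bins of cells ordered by the angle of their cell cycle scores. Bins run from cells called G1 (bins 12 and 1) through S (bins 3 and 4) to G2/M (bins 6 to 10). Panels show the members of each histone type, the variants H2afz and H2afx and the check genes Ccne1 and Plk1. WT is in grey and the library labelled S1/5 dKO in blue. The 5 types are lowest between bins 6 and 8 in both libraries, H2afz stays within 1.12-fold and H2afx is highest in bins 7 and 8.

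By phase, the ratio between the libraries is given for the phase calls described above. For all members it was -0.03 (-0.05 to -0.01) in G1, 0.08 (0.07 to 0.10) in S and 0.13 (0.11 to 0.14) in G2/M. Hist1h1b was at 0.03 in G1, 0.14 in S and 0.27 in G2/M. These steps between phases depended on the calls: with phases from unthinned cells S over G1 was lower in the labelled dKO library (0.30) than in WT (0.40), and at 5000 UMIs G2/M over G1 was nearly equal (-0.83 and -0.86). A shift of the ratio with the phase was therefore not settled. H3 was at -0.26 (-0.36 to -0.15) in G1, -0.07 (-0.17 to 0.04) in S and -0.13 (-0.22 to -0.05) in G2/M, and H2B at -0.26, -0.23 and -0.12. H3 and H2B were therefore lower in the labelled dKO library within each phase, with an S interval for H3 that held 0. Weighted to equal phase shares, the ratio of all members was 0.06, of H1 0.10, of H2A 0.08, of H2B -0.20, of H3 -0.15 and of H4 -0.08.

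Histone variants outside the clusters gave a different picture in the same cells. The 11 variant genes listed summed to 10139 CPM in WT and 10748 CPM in the labelled dKO library, far above the Hist members, and 6 were higher and 5 lower there. H2afz, the H2A variant at promoters, had 4833 and 5422.5 CPM, log2 0.17 (0.16 to 0.17). H3f3a and H3f3b, the genes of the H3 placed outside replication, had 1862 and 1776 CPM and 1695 and 1769 CPM, log2 -0.07 and 0.06. Along the cycle H2afz ranged only 1.09-fold in WT and 1.12-fold in the labelled dKO library, and H3f3a 1.08-fold and 1.10-fold. H2afx, whose protein is phosphorylated at DNA breaks, ran against the Hist genes: it had 613 CPM in G1 and 773 CPM in G2/M in WT, and 635 and 808 CPM in the labelled dKO library.
Other variants were lower or higher by library. The macroH2A gene H2afy2 had 33.6 CPM in WT and 26.5 CPM in the labelled dKO library, log2 -0.34 (-0.42 to -0.27), and H2afj 206 and 180.4 CPM, log2 -0.19 (-0.22 to -0.16). H1f0, the linker variant of cells that stop dividing, had 15.8 and 19.6 CPM, log2 0.31 (0.22 to 0.41). Cenpa, the H3 of centromeres, had 223 and 255 CPM, log2 0.19 (0.17 to 0.22), and its phase levels are no finding because it is in the G2/M list. H2afv had 432 and 426 CPM, H2afy 94.9 and 96.9 CPM and H1fx 64.5 and 60.5 CPM.

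Genes that make and process histone mRNA pointed both ways. Of 16 listed, 15 were measured (the spelling Symk matched no gene), 9 higher and 6 lower, with a median log2 ratio of 0.02. Intervals lay above 0 for 4 and below 0 for 4, against 19.1% and 18.1% of all genes with at least 20 UMIs. An interval also depends on the UMIs of a gene, so these counts are a description only. Slbp had 160 CPM in WT and 177 CPM in the labelled dKO library, log2 0.14 (0.11 to 0.18). Npat, which activates histone gene transcription, had 17.7 and 17.5 CPM, and its level in S was above that in G1 by log2 0.35 (0.16 to 0.55) in WT and 0.64 (0.44 to 0.83) in the labelled dKO library. Eri1, an exonuclease that trims the histone 3′ end, had 65.8 and 71.6 CPM, log2 0.12 (0.07 to 0.17). Upf1, needed for histone mRNA decay, was the lowest of the list with 36.3 and 28.4 CPM, log2 -0.35 (-0.42 to -0.28).
Histone chaperones and the assembly factors around them did so too. Of 14 listed, 8 were higher and 6 lower, with a median log2 ratio of 0.01. Their sums were 2661 CPM in WT and 2685 CPM in the labelled dKO library. Intervals lay above 0 for 5 and below 0 for 5, where 19.1% and 18.1% of all genes with at least 20 UMIs had such an interval. Narrower intervals come with more UMIs, so these counts too are a description only. Asf1a, which hands H3 and H4 to assembly factors, had 155 and 140.1 CPM, log2 -0.15 (-0.18 to -0.12), and its relative Asf1b 62.1 and 68.3 CPM, log2 0.14 (0.09 to 0.19). Chaf1a, of the assembly factor CAF-1, had 53.2 CPM in G1 and 78.7 CPM in S in WT, and 52.4 and 78.3 CPM in the labelled dKO library. Nasp, Chaf1b, Slbp and Casp8ap2 are in the S list, so their phase levels are not given.

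By cluster, the sums of Hist1 and Hist2 lay close to equality. Hist1 members had a log2 ratio of 0.03 (0.03 to 0.04) in sum, Hist2 -0.00 (-0.08 to 0.08), Hist3 0.22 (0.07 to 0.37) and Hist4h4 0.13 (-0.10 to 0.36). The Hist3 sum is of only 2 genes with 604 and 799 UMIs, and the interval of Hist3h2ba (-0.02 to 0.40) held 0. Of all genes with at least 20 UMIs 19.1% had an interval above 0, so the Hist3 value is a description only. The 54 Hist1 genes span chr13:21715763-23934851 (GRCm38), and 7 genes of other families that lie wholly inside this span, with at least 50 UMIs, had a median log2 ratio of -0.06, from -0.56 for Gm46404 to 1.05 for Hfe, an iron regulator with 29 and 68 UMIs. Abt1, the one of these with the most UMIs, had 78.5 and 83.1 CPM. The Hist1 neighbours thus pointed both ways. In the Hist2 span the only gene that met this rule, Gm20633, had 36 and 42 UMIs.

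Promoters were compared because most members share their timing (RefSeq, GRCm38.p6, 250 bases before to 50 after the start). Of the 67 genes 61 were matched, 56 of them members. The motifs were searched on both strands, the octamer ATTTGCAT, the CCAAT box and TATAAA. The octamer was found in 7 of 18 H2A promoters and 6 of 16 H2B promoters, in none of those of H1, H3 and H4, and in 1.74% of all 32851 promoters. CCAAT was found in every H1, H2A, H2B and H3 promoter matched and in 3 of 12 H4 promoters, against 37.4% of all. TATAAA was found in 3 of 5 H1, 11 of 18 H2A, 8 of 16 H2B, 4 of 10 H3 and 8 of 12 H4 promoters, against 13.6% of all. Windows of neighbouring genes on opposite strands can overlap, so a site can be counted for both genes. The octamer and the TATAAA of Hist1h2ae, for example, are also those of Hist1h2bg, so the counts by type do not all come from separate sites. Those of Hist1h1b (chr13:21780576-21780875, minus strand) and Hist1h2ae (chr13:23571171-23571470, minus strand) are shown, a linker and a core gene that are both highest around bin 3, with the motifs of either strand in capitals:
Hist1h1b: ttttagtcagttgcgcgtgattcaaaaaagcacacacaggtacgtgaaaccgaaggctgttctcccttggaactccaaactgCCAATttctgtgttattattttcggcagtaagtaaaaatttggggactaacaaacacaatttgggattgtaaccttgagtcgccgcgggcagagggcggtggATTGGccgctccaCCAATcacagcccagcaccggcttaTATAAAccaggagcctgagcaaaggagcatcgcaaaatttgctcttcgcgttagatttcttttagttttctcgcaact
Hist1h2ae: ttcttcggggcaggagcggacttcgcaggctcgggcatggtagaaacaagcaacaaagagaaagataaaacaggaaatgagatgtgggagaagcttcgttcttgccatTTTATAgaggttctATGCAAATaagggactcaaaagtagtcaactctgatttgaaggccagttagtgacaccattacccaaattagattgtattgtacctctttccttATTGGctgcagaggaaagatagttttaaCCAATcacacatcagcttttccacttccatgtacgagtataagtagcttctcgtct
Hist1h1b has CCAAT boxes close before a TATAAA, and Hist1h2ae has the octamer on the opposite strand farther from its start. A match describes letters only, and no binding was measured.

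From cell to cell the histone count was uneven. Thinned to 10000 UMIs, the median cell held 16 histone UMIs in both libraries, with 5% of cells at or below 1 and 5% at or above 42 in WT and 44 in the labelled dKO library. The variance was 10.1 and 11.2 times the mean, where counting alone gives 1. No histone UMI was found in 43 WT cells (1.96%) and 73 labelled dKO cells (2.57%). An H1 UMI was found in 89.0% and 87.8% of thinned cells (97.6% and 96.9% unthinned) and an H2B UMI in 51.1% and 47.7% (88.9% and 83.5% unthinned).

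Free RNA carried histone UMIs too. Barcodes with 10 to 100 UMIs, taken as empty droplets, held 1373 CPM of histone RNA in the WT library and 1233 CPM in the labelled dKO library, 85.4% and 74.8% of the level in cells. Each held only 24.4 and 27.0 UMIs of any gene on average and 0.0334 histone UMIs in either library, against 69.0 and 61.7 in a cell. By type the free level was 94.0% of that in cells for H1 and 67.8% for H2A in WT, and 77.6% and 62.7% in the labelled dKO library. It was 88.4% and 105% for H2B, 92.3% and 69.6% for H3 and 118% and 112% for H4. None of these shares was given an interval. The values rest on only 119 and 136 free UMIs for H2B, 90 and 67 for H3 and 206 and 203 for H4. A surplus in free RNA of H4, or of H2B in the labelled dKO library, was therefore not settled. How far free RNA moved the phase levels was not tested.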

How the data were processed

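Cell Ranger 3.0.2 on mm10 gave the deposited UMI counts, which the authors made per gene and barcode in 2 libraries (10x Genomics 3′ v3). Members and gene lists were chosen with earlier results of these data known. Cells needed at least 1000 detected genes and at most 5% mt- UMIs. Levels are UMIs summed over cells per 10⁶ UMIs (CPM). Intervals are exact Poisson (levels), conditional binomial (ratios) and Clopper-Pearson (shares). Phases came from CellCycleScoring of Seurat 5.3.0 on cells thinned to 10000 UMIs, and phase levels from all UMIs of those cells. Other scalings used TMM of edgeR 4.0.16 and medians of ratios. Doublets were not called: 135 WT and 140 S1/5 dKO cells with over 2 times the median UMIs were left out as an alternative. Named genes are the 20 members with the most UMIs, the highest of each type, the 3 highest and 3 lowest ratios of members with at least 100 UMIs, and list genes with at least 50 UMIs. Any other gene was named after its values were seen. The shares of all genes by direction, interval and bin were added after the results were seen. The 3′ ends were read from GENCODE M21 transcripts and promoters from RefSeq, by symbol or synonym within 500 bases of the gene start. Protein sequences were not used here. Computation used Python 3.11.15 and R 4.3.3.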

Additional observations from a re-analysis of the deposited data

Results flagged for a closer look

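Histone RNA was also found in barcodes that the comparisons do not use, with no control samples to set it against. In the cells with over 5% mt- UMIs it was 1622 CPM in 26 WT cells and 1310.3 CPM in 29 cells of the library labelled S1/5 dKO. In barcodes with 10 to 100 UMIs it was 1373 CPM in WT and 1233 CPM in the labelled dKO library. Their source was not tested.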

How the results depend on the processing

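All values are log2 ratios unless said. The single library per group and members with few UMIs set the limits, and the cause of each move was not tested. The summed ratio (0.04) was 0.0075 without cells of over 2 times the median UMIs, 0.051 under median of ratios, 0.058 at equal phase shares and -0.0088 without Hist1h1b. H1 (0.08) was 0.038 without cells of high UMIs, 0.052 thinned, 0.063 as mean of per-cell CPM, 0.10 under median of ratios, 0.10 at equal shares and -0.0033 without Hist1h1b. H2A (0.04) was 0.063 thinned, 0.076 at equal shares and 0.00070 without Hist1h2ap, and H2B (-0.21) was -0.031 without Hist1h2bc. Hist2h4 was -0.010 thinned. Of the members at least 1.5-fold higher, 1 had 50 UMIs or more and 0 had 100, and 1 of the lower had 100. S over G1 in WT (0.20) and the labelled dKO library (0.32) was 0.15 and 0.14 on thinning to 5000 UMIs, 0.40 and 0.30 unthinned, 0.14 and 0.23 with another seed, 0.14 and 0.27 per cell, and 0.24 in WT without cells near a boundary. Among alternatives chosen after seeing the data, it was 0.19 and 0.29 scored without Hist genes and 0.27 in the labelled dKO library without cells of high UMIs. There H2B was -0.039 at 5000 UMIs and -0.049 with another seed, and H4 -0.018. G2/M over G1 (-1.01 and -0.85) was -0.86 and -0.83 at 5000 UMIs, -0.96 and -0.92 with another seed, -1.10 and -1.09 without boundary cells, -0.96 and -0.84 without cells of high UMIs (chosen after seeing the data), -0.70 and -0.60 per cell, and -0.999 unthinned in the labelled dKO library. Of 270 values for single genes, 257 stayed within the first interval.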
